A study of Mus musculus with 3 samples.

Results

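The Notch receptors Notch1, Notch2, Notch3 and Notch4, the ligands Jag1, Dll1 and Dll4, and the target genes Hes1, Hey1 and Heyl were followed across the cell types of the embryonic mouse soft palate. These 10 genes were taken by symbol from the 32285 genes of the count tables. No cutoff on their values was used, but earlier results of these data were known at the choice. Single cells of C57BL/6 soft palate at E14.5 were measured in 2 control libraries, called control 1 and control 2 here, and in 1 library of Osr2-Cre;Alk5fl/fl embryos, called the mutant. Alk5 is the older symbol of Tgfbr1, a type I receptor for TGF-β, and Osr2-Cre acts in the palatal mesenchyme, so the deletion was not aimed at endothelium, epithelium or muscle. The labels call the other group only control, and the study's text names Tgfbr1fl/fl or Tgfbr1fl/+ littermates. The labels do not say how many embryos a library holds, so the library is taken as the replicate. Each p-value below sets a difference between cell types against a spread shared over 6 types of these 3 libraries and steadied by other genes. The level of each library is taken out first, and the mutant counts as 1 of the libraries.

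Notch receptors are membrane proteins that are cut when a Jagged or Delta-like ligand on a neighbouring cell binds them, and the freed inner part enters the nucleus and turns on genes with the DNA-binding protein Rbpj. Hes and Hey genes are the best known of these genes and encode repressors. In developing tissue the pathway is known for arterial identity and sprouting in endothelium, for the coating of vessels by mural cells, for keeping muscle progenitors undifferentiated, and for layering of epithelium.

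The libraries held 2816, 4067 and 8690 cell barcodes and 22624711, 27814907 and 63505144 UMIs in control 1, control 2 and the mutant. After filters on quality and doublets 2069, 3697 and 7547 cells were kept, and pairs of libraries shared 18 to 49 barcodes. Each cell was given a type by how many genes of a marker list it held, and the UMIs of all cells of a type were summed within each library and divided by their total, which gives CPM, the UMIs of a gene in every 1000000 UMIs. The endothelial gate held 22, 82 and 234 cells, the pericyte gate 35, 19 and 69, muscle progenitors 27, 60 and 71, differentiating myocytes 103, 95 and 81, epithelium 224, 362 and 527, and mesenchyme 1234, 2199 and 3978. None of the 10 genes is a gate marker.

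Markers outside the gates were read in each type. Egfl7, Ramp2, Flt1 and Tal1, which mark endothelium, summed to 1477, 1451 and 1867 CPM in the endothelial gate and to 147, 115 and 141 CPM in the pericyte gate. The pericyte gate was the weakest. Of its cells 27, 18 and 47 held just the minimum of 2 of 7 markers. Pdgfrb, Cspg4, Mcam and Ndufa4l2 summed there to 311, 203 and 453 CPM against 84.7, 87.6 and 133 CPM in the mesenchyme, Vtn was at 0 in both controls, and the mesenchyme gate list reached 1095, 1123 and 835 CPM there against 1155, 1132 and 1159 CPM in the mesenchyme itself. Its cells are therefore called cells of the pericyte gate. Control 1 stood apart in the endothelium, where the mesenchyme gate list summed to 346 CPM against 47.6 in control 2 and 132 in the mutant, and the neuron gate list summed to 277 CPM in the mutant endothelium against 38.5 and 23.8 in the controls. The part of these transcripts in the results was not tested.

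Cell types were compared with edgeR's quasi-likelihood test on the 18 sums of 6 types and 3 libraries, with the library as a block, and all adjusted p-values are from that test with Benjamini-Hochberg adjustment over 9499 genes. A gene was called at an adjusted p under 0.05 with a log2 fold change of at least 1 in size. The SE of a log2 fold change was taken as its size divided by the square root of the F value of that test. It is therefore approximate, and least reliable where a type held few UMIs. All 10 Notch genes passed the filter on low counts, which asks for enough UMIs in as many sums as a type has libraries. Notch4 and Dll4 passed it only through endothelium and Dll1 only through differentiating myocytes. Heyl passed it through the pericyte gate and muscle progenitors. These are the types where they were high, so counts of higher genes that include them there are a description. No call of a Notch gene was lost when the filter was left out. Values in each library are given in the order control 1, control 2 and mutant.

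In build GRCm38 with the GENCODE M21 annotation, the receptors lie at chr2:26457903-26516663 (Notch1, minus strand), chr3:98013527-98150361 (Notch2, plus), chr17:32120820-32166852 (Notch3, minus) and chr17:34564268-34588503 (Notch4, plus). The ligands lie at chr2:137081456-137116644 (Jag1, minus), chr17:15367354-15376872 (Dll1, minus) and chr2:119325784-119335962 (Dll4, plus). The targets lie at chr16:30064384-30067796 (Hes1, plus), chr3:8663359-8667256 (Hey1, minus) and chr4:123233556-123249875 (Heyl, plus). UMIs were counted over the whole gene, so they do not tell its transcripts apart.

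**Figure D1:**
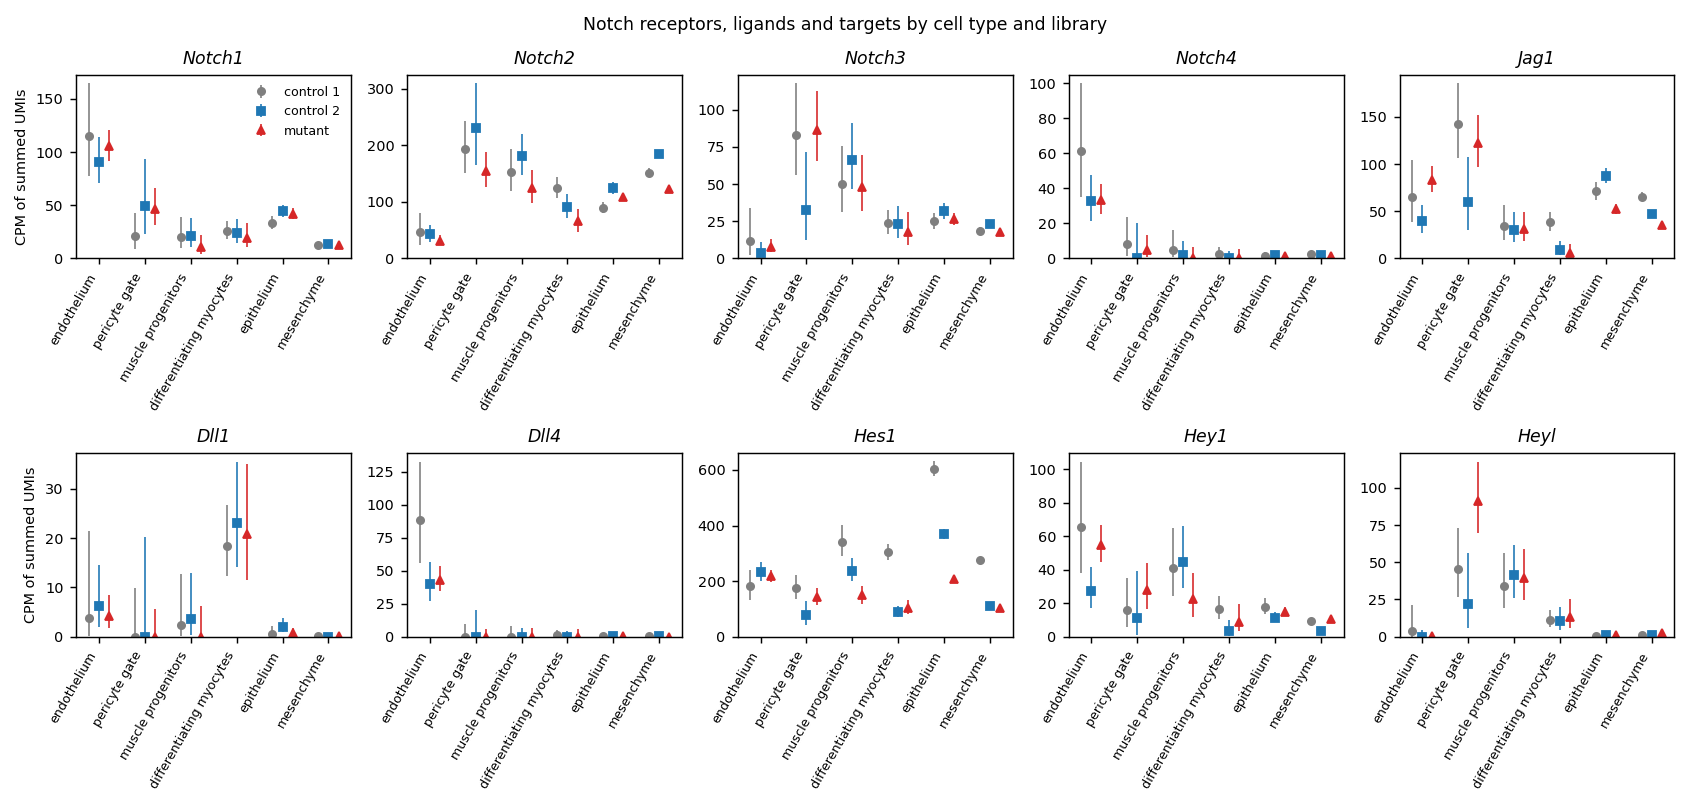
CPM of summed UMIs (vertical axis, linear, with its own range in each panel) of the 10 Notch genes in 6 cell types (horizontal axis) of control 1, control 2 and the mutant. Bars are exact 95% Poisson intervals, which cover counting error only. Notch1, Notch4 and Dll4 were at their highest in the endothelium of all 3 libraries, Dll1 in differentiating myocytes, and Hes1 was at its highest in the epithelium of both controls.

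Endothelium held the clearest pattern. Notch1, Notch4, the ligands Dll4 and Dll1 and the target Hey1 were higher there than in the mesenchyme, and Notch2 and Notch3 were lower. These 5 higher and 2 lower genes of 10 stand against 10.4% and 13.7% of all genes tested, 24.1% in either direction. Notch4 and Dll4 are among the 10 tested only because of their counts in endothelium, so the count of higher genes is a description.

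Notch1, the receptor required for arterial development, reached 115, 90.3 and 105 CPM in endothelium against 12.6, 13.3 and 13 CPM in mesenchyme. The types did not overlap in any library. The log2 fold change was 3.0 ± 0.17 (SE, n = 3 libraries, edgeR adjusted p = 1.36e-12). Notch4, known as the receptor of endothelial cells, reached 61.6, 32.6 and 33.1 CPM there, on 16, 26 and 62 UMIs. Mesenchyme held 2.59, 1.89 and 1.24 CPM of Notch4, and none of the other 5 types compared exceeded 8.03 CPM in any library. The Notch4 log2 fold change was 4.51 ± 0.37 (SE, n = 3 libraries, edgeR adjusted p = 8.65e-10).

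Dll4, the Delta-like ligand of arteries and sprouting tip cells, was close to absent outside endothelium. It reached 88.5, 40.1 and 43.3 CPM in endothelium on 23, 32 and 81 UMIs. The mesenchyme held 6, 4 and 3 Dll4 UMIs, or 0.556, 0.302 and 0.109 CPM, and its cells outnumbered the endothelial cells in every library. The Dll4 log2 fold change against mesenchyme was 7.55 ± 0.45 (SE, n = 3 libraries, edgeR adjusted p = 8.12e-11). When each cell was thinned to 2000 UMIs, with 5, 2 and 18 shallower endothelial cells left out, 11.8%, 13.8% and 12.5% of endothelial cells kept a Dll4 UMI, against 0.0816%, 0.0476% and 0.0260% of mesenchymal cells and 0% of leukocytes in each library. Without thinning the endothelial shares were 31.8%, 26.8% and 26.5%, at median depths of 7904, 6182 and 5823 UMIs per cell, and the mesenchymal shares were 0.486%, 0.182% and 0.0754%, at median depths of 7861, 5177 and 5432.

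Hey1, a target that represses venous genes in endothelium, reached 65.4, 27.6 and 55.1 CPM there against 9.36, 3.32 and 10.6 CPM in mesenchyme. Its log2 fold change was 2.68 ± 0.28 (SE, n = 3 libraries, edgeR adjusted p = 3.90e-08). The lowest endothelial library was still above the highest mesenchymal library. Hes1, the most general target, was at 181, 233 and 219 CPM in endothelium and 275, 111 and 102 CPM in mesenchyme, so the types overlapped, and its log2 fold change of 0.73 ± 0.24 (SE) was not called. Dll1 was higher by 5.08 ± 0.82 (SE, log2 scale, edgeR adjusted p = 3.05e-05), on only 1, 5 and 8 endothelial UMIs.

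The receptors of the other cell types were lower in endothelium. Notch2 was at 46.2, 42.6 and 31.5 CPM there and at 152, 185 and 123 CPM in mesenchyme, and it fell by 1.94 on the log2 scale (SE 0.17, edgeR adjusted p = 3.42e-09). Notch3, the receptor of mural cells, was at 11.5, 3.76 and 8.02 CPM against 18.6, 22.8 and 17.5 CPM, on 3, 3 and 15 endothelial UMIs, and it fell by 1.38 on the log2 scale (SE 0.32, edgeR adjusted p = 0.00117). All 7 endothelial calls held under each alternative that gave a value.

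The stretches of 250 bases before the annotated starts of the endothelial genes Notch1, Notch4 and Dll4 are shown. The stretch before the second annotated start of the myocyte ligand Dll1 is shown as well. Each of these genes was highest in the same type in all 3 libraries. Notch2 was too, in the pericyte gate, and its stretch is not printed. Of the Dll1 starts only the second has CAGCTG in its window, which is why it is the one printed. They are RefSeq sequences of build GRCm38.p6, which were found for 7 of the 10 genes, at 8 starts, and not for Hes1, Hey1 and Heyl. Each is printed 5′ to 3′ on the strand of its gene, at chr2:26503823-26504072 on the minus strand for Notch1, chr17:34564045-34564294 on the plus strand for Notch4, chr2:119325534-119325783 on the plus strand for Dll4 and chr17:15376933-15377182 on the minus strand for Dll1. The RefSeq start of Notch1 lies inside the gene as GENCODE M21 draws it, so its window is within that gene and not before its GENCODE start. Capitals mark every GGAA on either strand (TTCC as printed), the core letters bound by ETS factors of the endothelial lineage, and every CAGCTG, an E box of the form bound by myogenic factors.
Notch1: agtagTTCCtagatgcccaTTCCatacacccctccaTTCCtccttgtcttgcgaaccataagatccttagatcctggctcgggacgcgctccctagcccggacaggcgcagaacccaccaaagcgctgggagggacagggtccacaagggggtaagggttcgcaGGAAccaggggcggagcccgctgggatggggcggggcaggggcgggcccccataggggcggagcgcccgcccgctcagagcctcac
Notch4: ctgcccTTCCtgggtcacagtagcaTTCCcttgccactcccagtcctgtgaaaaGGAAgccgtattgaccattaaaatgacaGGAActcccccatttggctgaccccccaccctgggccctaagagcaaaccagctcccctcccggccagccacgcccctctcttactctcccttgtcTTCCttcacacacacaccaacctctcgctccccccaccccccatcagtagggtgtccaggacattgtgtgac
Dll4: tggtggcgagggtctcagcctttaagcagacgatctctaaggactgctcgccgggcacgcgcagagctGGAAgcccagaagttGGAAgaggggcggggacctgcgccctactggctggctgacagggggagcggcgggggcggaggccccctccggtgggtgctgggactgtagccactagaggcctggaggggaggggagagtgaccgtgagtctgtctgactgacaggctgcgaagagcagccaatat
Dll1: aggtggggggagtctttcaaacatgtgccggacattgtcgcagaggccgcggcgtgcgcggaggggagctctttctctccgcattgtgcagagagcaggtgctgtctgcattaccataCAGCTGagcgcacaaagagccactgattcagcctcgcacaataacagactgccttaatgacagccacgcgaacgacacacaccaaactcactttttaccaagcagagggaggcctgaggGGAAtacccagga
The core letters occurred at 4 places before Notch1, 5 before Notch4 and 2 before Dll4, and 93.4% of 32851 promoters of this length held them, so their presence does not set these genes apart. CAGCTG stood before this Dll1 start and before Jag1, and in 13% of promoters. TGGGAA, the letters bound by Rbpj, which contain the ETS core, was found in 21.6% of promoters and AGATAA, bound by GATA factors, in 9.99%, on either strand, and neither was found before any of the 8 starts. No match says only that these letters are not in the window.

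Endothelial cells with at least 2 of the 6 markers Gja4, Gja5, Sox17, Bmx, Efnb2 and Mecom, which are known from arteries, numbered 6, 29 and 101, and cells with none of them 9, 24 and 70. The comparison is a description without a test. The remaining endothelial cells were in neither group. The group with arterial markers held 108578, 407563 and 895643 UMIs in all. A marker is more readily detected in a cell with more UMIs, and the part of depth in the comparison was not tested.

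Hey1 was at 147, 51.5 and 103 CPM in the cells with arterial markers and at 12.3, 6.05 and 4.34 CPM in the cells without. Notch4 was at 147, 51.5 and 49.1 CPM against 0, 0 and 17.4 CPM. Dll4 was at 184, 51.5 and 63.6 CPM against 12.3, 30.2 and 28.2 CPM. These 3 genes were higher in the arterial cells of each library, and for Hey1 the Poisson intervals of both groups were apart in control 1 and the mutant and overlapped in control 2, where they reached from 31.9 to 78.8 CPM and from 0.153 to 33.7 CPM. The intervals of Dll4 overlapped in control 2 as well. Jag1, a ligand of arterial endothelium and mural cells, was at 145 CPM in the arterial cells of the mutant and at 28.2 CPM in its cells without arterial markers, while in the controls it was at 64.5 and 39.3 CPM against 49.0 and 36.3 CPM, a difference within the counting intervals. Notch1 was at 203, 118 and 131 CPM against 49.0, 66.5 and 73.8 CPM, higher in each library, and Dll1 was higher in 1 of 3 libraries. Hes1 was at 193, 245 and 180 CPM against 159, 357 and 208 CPM and had no common direction.

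**Figure D2:**
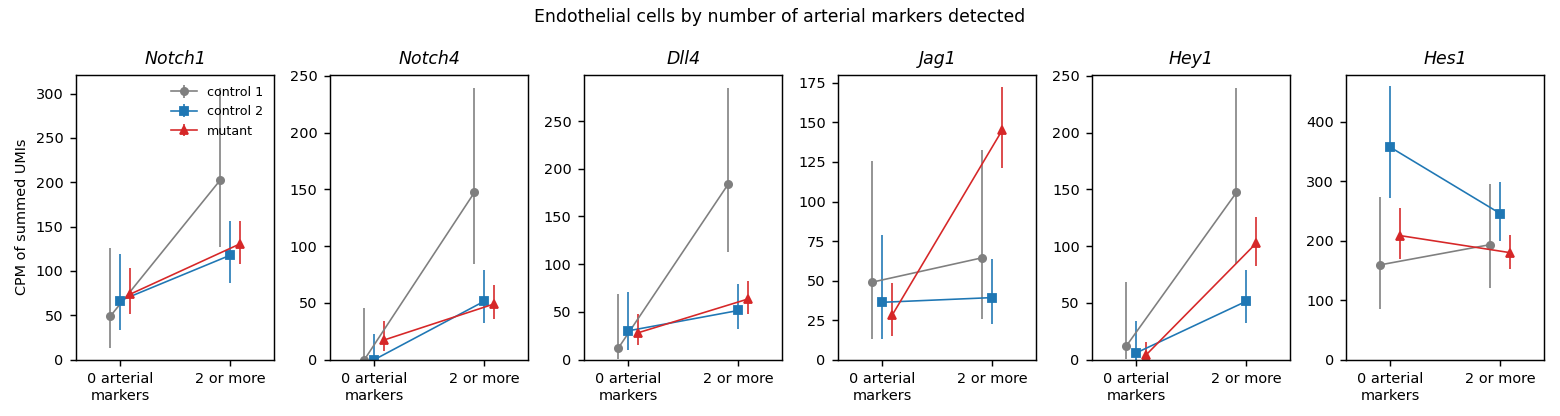
CPM of summed UMIs (vertical axis) of 6 Notch genes in endothelial cells with 0 or with 2 or more of 6 arterial markers (horizontal axis), in control 1, control 2 and the mutant, with exact 95% Poisson intervals. Hey1, Notch4 and Dll4 were higher in the cells with arterial markers in all 3 libraries, with overlapping intervals of Hey1 and Dll4 in control 2, and Jag1 was clearly so in the mutant.

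Cells of the pericyte gate carried the receptor Notch3 and its target Heyl. There 4 of the 10 genes were higher than in mesenchyme and 0 lower, against 0.853% and 0.0211% of all genes, 0.874% in either direction. Of the higher genes only Heyl was called under every alternative that gave a value.

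Heyl, a target expressed in mural cells and muscle precursors, reached 45.5, 21.9 and 91.2 CPM in the pericyte gate, on 17, 4 and 59 UMIs, and 1.20, 1.28 and 2.51 CPM in mesenchyme. Each pericyte value was above all mesenchymal values. The log2 fold change was 5.0 ± 0.37 (SE, n = 3 libraries, edgeR adjusted p = 5.67e-09). Notch3 reached 83.0, 32.9 and 86.5 CPM there, with control 2 low on 6 UMIs, and its log2 fold change of 1.94 ± 0.23 (SE) had an edgeR adjusted p of 9.64e-06. Notch1 was at 21.4, 49.3 and 46.4 CPM in the gate, a log2 fold change of 1.54 ± 0.26 (SE, edgeR adjusted p = 0.00144). Jag1 was at 142, 60.3 and 122 CPM against 65.5, 46.9 and 35.9 CPM in mesenchyme, a log2 fold change of 1.23 ± 0.30 (SE) with an edgeR adjusted p of 0.0438, which was lost under 5 alternatives.

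Without the mutant library 1 of these 4 calls, that of Heyl, remained, and likewise with 1 marker fewer for each gate. Of all genes 0.297% and 0.195% were called in these settings. Notch2 was at 193, 230 and 155 CPM in the pericyte gate, a log2 fold change of 0.28 ± 0.15 (SE) from mesenchyme that was not called. Dll1 and Dll4 had no UMI in the pericyte gate of any library, where the count of 0 allows up to 8.03, 16.4 and 4.64 CPM.

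Set against the pericyte gate directly, endothelium was higher for 4 genes and lower for 3, against 8.65% and 11.7% of all genes, 20.3% in either direction. Dll4 in endothelium was at least 2.44-fold to 11-fold higher by library, with the floor of 3 UMIs per library for the count of 0. Heyl was at 3.85, 0 and 0.535 CPM in endothelium, on 1, 0 and 1 UMIs, and was lower by 6.41 ± 0.67 (SE, log2 scale, edgeR adjusted p = 1.77e-07). Notch3 fell by 3.32 on the log2 scale (SE 0.34, edgeR adjusted p = 1.58e-07) and Notch2 fell by 2.22 (SE 0.20, edgeR adjusted p = 1.91e-08). Notch1 was higher by 1.46 ± 0.24, Notch4 by 3.12 ± 0.58 and Hey1 by 1.38 ± 0.42 (log2 scale ± SE), with edgeR adjusted p-values of 5.98e-05, 0.000227 and 0.0150. With the pericyte gate limited to cells with at least 4 UMIs over the gate list, an alternative chosen after seeing the data, these last 3 calls were lost and 4 remained. All 3 were also lost when cells that held mesenchyme markers too were left out, and Hey1 was lost as well with no replicate block, without control 1 and without the mutant. The limit of 4 UMIs left 15, 4 and 32 cells in the pericyte gate, and leaving out mesenchyme markers left 12, 5 and 45. Control 2 was under the minimum number of cells in both, so only the pericyte gates of control 1 and the mutant were compared. Of all genes 10.5% and 12.9% were called there.

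**Figure D3:**
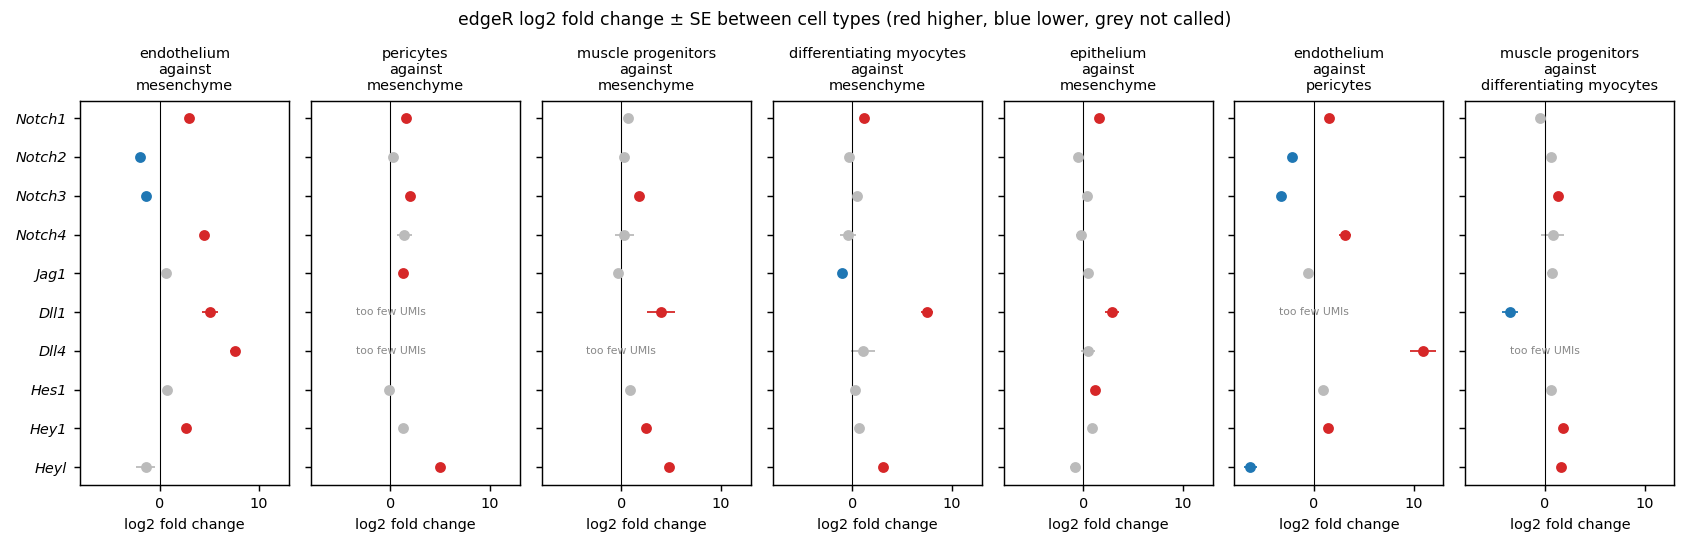
Log2 fold change (horizontal axis, points, with SE as bars) of the 10 Notch genes (vertical axis) in 7 comparisons of cell types by edgeR over 3 libraries, red for called higher, blue for called lower and grey for not called. Values with an SE over 2 that were not called are written as too few UMIs. Endothelium has the receptors Notch1 and Notch4 higher and Notch2 and Notch3 lower, and Heyl is higher in the pericyte gate and in both muscle groups than in mesenchyme.

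Muscle was divided into progenitors and differentiating myocytes by Myog, Mymk and sarcomere genes. The sarcomere list summed to 187, 165 and 87.3 CPM in progenitors and to 3036, 5655 and 5253 CPM in differentiating myocytes. Progenitors had Notch3, Hey1 and Heyl higher than mesenchyme, and differentiating myocytes had the ligand Dll1.

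In muscle progenitors 4 genes of 10 were called higher and 0 lower than in mesenchyme, against 5.67% and 9.77% of all genes, 15.4% in either direction. Heyl was at 34.2, 41.2 and 39.4 CPM, a log2 fold change of 4.78 ± 0.38 (SE, n = 3 libraries, edgeR adjusted p = 4.15e-09). Hey1 was at 41.1, 44.8 and 22.3 CPM, a log2 fold change of 2.51 ± 0.36 (SE, edgeR adjusted p = 1.38e-05). Notch3, known from muscle stem cells as well as mural cells, was at 50.2, 66.3 and 47.9 CPM, a log2 fold change of 1.75 ± 0.23 (SE, edgeR adjusted p = 4.71e-06). The 3 libraries lay close together for Heyl, and for all these genes the progenitors lay above the mesenchyme of every library. The Notch3 call was lost with 1 marker fewer for each gate, where 1% of all genes were called. The other call, of Dll1, rested on 1, 2 and 0 UMIs in progenitors and 1, 0 and 5 in mesenchyme, and it was lost without control 1 and without control 2.

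Differentiating myocytes had 3 genes of 10 higher and 1 lower than mesenchyme, against 5.82% and 8.52% of all genes, 14.3% in either direction. Dll1, the ligand through which differentiating muscle cells signal to progenitors, was at 18.4, 23.0 and 20.8 CPM on 28, 20 and 14 UMIs. These values lay within the Poisson intervals of each other. Its log2 fold change was 7.49 ± 0.60 (SE, n = 3 libraries, edgeR adjusted p = 5.63e-09). Heyl was at 11.2, 10.3 and 13.4 CPM, a log2 fold change of 3.13 ± 0.43 (SE, edgeR adjusted p = 5.65e-06), and Notch1 at 25.7, 24.1 and 19.4 CPM, a log2 fold change of 1.18 ± 0.22 (SE, edgeR adjusted p = 0.000226), a call lost without TMM factors, with 1 marker fewer for each gate and with types from clusters. Jag1 was at 38.2, 9.19 and 5.96 CPM, with control 1 far above the others, and its fall of 1.0 on the log2 scale (SE 0.34, edgeR adjusted p = 0.0249) was lost without control 2 and without the mutant.

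Between the muscle groups 3 genes were higher and 1 lower in progenitors, against 0.6% and 2.87% of all genes, 3.47% in either direction. Notch3 was higher by 1.28 ± 0.27, Hey1 by 1.82 ± 0.44 and Heyl by 1.65 ± 0.40 (log2 scale ± SE), with edgeR adjusted p-values of 0.00584, 0.0132 and 0.0149. Dll1 was lower by 3.53 ± 0.80 (SE, log2 scale, edgeR adjusted p = 0.0103). Heyl lay at 34.2 to 41.2 CPM in progenitors and at 10.3 to 13.4 CPM in differentiating myocytes, so the groups did not overlap. These calls depended on the libraries. Of the 4, only Notch3 remained without control 2 and only Hey1 without the mutant. In these settings 1.11% and 1.61% of all genes were called, so calls fell over all genes as well. Each call was lost under 2 to 4 of 12 alternatives.

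Epithelium had the receptor Notch1 and the target Hes1 higher than mesenchyme. Of the 10 genes 3 were higher than in mesenchyme and 0 lower, against 5.26% and 3.52% of all genes, 8.78% in either direction. Notch1, which acts in the layering of epithelium, was at 33.3, 44.2 and 41.8 CPM, a log2 fold change of 1.55 ± 0.15 (SE, n = 3 libraries, edgeR adjusted p = 1.99e-08). Hes1 was at 605, 370 and 209 CPM, a log2 fold change of 1.24 ± 0.23 (SE, edgeR adjusted p = 0.000215). The Hes1 call was lost with no replicate block (adjusted p = 0.0764 by edgeR). Within each library Hes1 was higher in epithelium than in mesenchyme, but the mutant epithelium lay below the mesenchyme of control 1. Dll1 was called on 2, 10 and 5 UMIs, a log2 fold change of 2.88 ± 0.74 (SE, edgeR adjusted p = 0.00514), and the call was lost without control 2. Jag1, at 71.0, 87.6 and 52.0 CPM, was not called (log2 fold change 0.48 ± 0.23, SE). Hey1 was not called either (log2 fold change 0.87 ± 0.24, SE, edgeR adjusted p = 0.00752). Of the receptors Notch2 had the highest level in epithelium, at 89.9 to 124 CPM. It was lower than in mesenchyme and not called (log2 fold change -0.56 ± 0.13, SE, edgeR adjusted p = 0.00159). Many cells of this gate held mesenchyme markers too. Without cells holding at least 3 of the 6 mesenchyme markers 150, 203 and 293 remained, and 18.3% of all genes were called. The 3 calls were kept there and Hey1 was called, as it was with types from clusters and without the mutant.

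Epithelial cells with a Krt6a UMI, a keratin of the periderm and of upper layers, were set beside those without, as a description. Their number was 36, 95 and 119, against 188, 267 and 408 cells without. Jag1 was at 162, 154 and 72.4 CPM in cells with Krt6a and at 50.9, 58.8 and 44.6 CPM in the others. Notch1 was at 56.1, 77.9 and 64.7 CPM against 28.2, 29.5 and 33.5 CPM, and Hey1 at 34.7, 20.8 and 25.8 CPM against 14.3, 7.31 and 10.9 CPM. All 3 genes were higher with Krt6a in each library. Notch2 showed no such pattern, and its pooled level was 108 CPM with Krt6a and 110 CPM without.

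Mesenchyme held mainly Notch2 and Hes1 of these genes, at 123 to 185 CPM and 102 to 275 CPM. Its cells were split by the perimysial markers Hic1, Ebf2, Foxd1 and Agtr2, with 415, 407 and 585 cells holding at least 2. Notch3 was at 24.0, 27.0 and 25.6 CPM in these cells and at 15.4, 21.4 and 14.7 CPM in the others. Notch1 was at 15.5, 17.4 and 17.5 CPM against 10.9, 11.8 and 11.4 CPM. The differences had the same direction in each library and were small. Notch2, Notch4 and Hes1 were also higher in these cells in each library, at pooled levels of 170, 2.12 and 180 CPM against 135, 1.52 and 125 CPM. The Notch4 levels rested on only 31 and 56 UMIs over all libraries. The difference of Notch1 was not particular to them. In mesenchymal cells with an Scx UMI, a tendon factor, it was higher in each library too, at 18.0 CPM pooled against 11.6 CPM. In the 150, 121 and 668 mesenchymal cells with an Sp7 UMI, an osteoblast factor, Notch2 was lower, at 91.6, 128 and 105 CPM against 164, 190 and 129 CPM, and Hey1 was higher, at 15.9, 8.83 and 17.3 CPM against 8.02, 2.8 and 8.04 CPM.

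The order of the levels over types, on the mean log2 CPM of 3 libraries, had endothelium first for Notch1, Notch4, Dll4 and Hey1, the pericyte gate for Notch2, Notch3, Jag1 and Heyl, differentiating myocytes for Dll1 and epithelium for Hes1. Neighbours in this order were often not apart. The Notch2 libraries of the pericyte gate (155 to 230 CPM), muscle progenitors (125 to 181 CPM) and mesenchyme (123 to 185 CPM) overlapped, and so did those of Notch3 and of Heyl in the pericyte gate and muscle progenitors and those of Hey1 in endothelium and muscle progenitors. Jag1 in the pericyte gate (60.3 to 142 CPM) overlapped epithelium (52.0 to 87.6 CPM) and mesenchyme (35.9 to 65.5 CPM). Hes1 in epithelium (209 to 605 CPM) overlapped muscle progenitors (149 to 342 CPM) and mesenchyme (102 to 275 CPM).

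Genes with a like pattern were sought among 6743 genes by the Pearson correlation of log2(CPM + 1) over the 18 sums, which share libraries and types, so the values describe and do not test. Dll4 was closest to Sox7 (r = 0.996), Scarf1 (0.993) and Gpihbp1 (0.990), all known from endothelium. Notch4 was closest to Rbpms (0.939), Fxyd5 (0.933) and Bst2 (0.933), and Notch1 to Dock9 (0.917), Itga6 (0.899) and Col18a1 (0.880). Heyl was closest to the smooth muscle actin gene Acta2 (0.811), to Glipr2 (0.809) and to Notch3 (0.794). Dll1 was closest to Sh3glb1 (0.934), Cd82 (0.913) and Arl6ip5 (0.907). Jag1 was closest to Mical1 (0.890), Notch2 and Notch3 both to Igf2bp2 (0.930 and 0.866), Hes1 to Cbr2 (0.812) and Hey1 to Tspan6 (0.823), lower values than those of the endothelial ligand.

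A list of 47 other genes of the pathway was read in the same fit, and 36 of them passed the filter on low counts. In endothelium 6 were higher and 4 lower than in mesenchyme, near the 24.1% of all genes called there, with a median log2 fold change of -0.08 over the list and -0.04 over all genes. Mfng, which adds sugars to Notch receptors, was higher by 8.32 ± 0.32, Nrarp, a target that restrains the pathway, by 6.48 ± 0.31, and the ligand Jag2 by 4.15 ± 0.33 (log2 scale ± SE). In the pericyte gate Nrarp alone was called, higher by 5.25 ± 0.45, at 37.5, 11 and 75.7 CPM against 1.20, 1.58 and 1.20 CPM in mesenchyme, with a list median of 0.19 against -0.01 over all genes, of which 0.874% were called. Between endothelium and the pericyte gate 6 were higher and 4 lower, with a median of -0.02 and the same over all genes, of which 20.3% were called. Jag2 was higher by 3.35 ± 0.64, Dlk1, a ligand-like protein that lacks the Notch-binding domain, was lower by 3.80 ± 0.23, and Mfng had no UMI in the pericyte gate.

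In muscle progenitors 5 genes of the list were higher and 3 lower than in mesenchyme (median -0.08, all genes -0.07 with 15.4% called), led by the sugar transferases Lfng (4.60 ± 0.37) and Mfng (3.55 ± 0.94) and by Hes6 (2.55 ± 0.29), a Hes protein that promotes differentiation. The Mfng call rested on 1, 5 and 1 UMIs in the progenitors. In differentiating myocytes 4 were higher and 1 lower (median -0.14, all genes -0.04 with 14.3% called), led by the ligand-like Dner (4.75 ± 0.66), Hes6 (3.81 ± 0.26) and Lfng (3.40 ± 0.37). Hes6 was lower in progenitors than in differentiating myocytes by 1.26 ± 0.28 and Dtx4, a ubiquitin ligase, higher by 1.30 ± 0.37, the only calls of the list there (median -0.09, all genes -0.02 with 3.47% called). In epithelium 5 were higher and 1 lower (median 0.22, all genes -0.01 with 8.78% called), led by Jag2 (4.08 ± 0.25), Nrarp (3.5 ± 0.32) and Lfng (2.63 ± 0.28). These values are log2 fold changes ± SE, and the named genes had edgeR adjusted p-values under 0.05. Jag2 was thus the ligand called in epithelium besides Dll1.

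**Figure D4:**
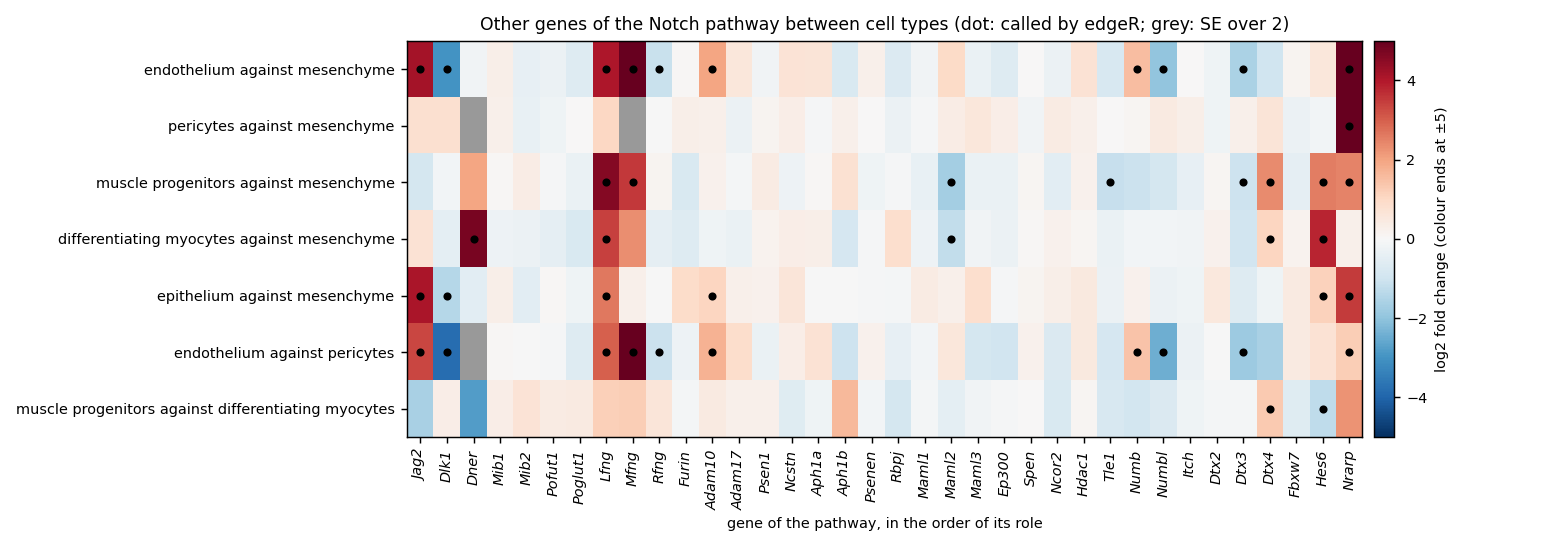
Log2 fold change by edgeR (colour, with its ends at 5 in size) of the 36 other pathway genes tested (horizontal axis) in 7 comparisons of cell types (vertical axis), with dots on called genes and grey where the SE was over 2. Endothelium against mesenchyme has 6 genes called higher and 4 lower, and the pericyte gate against mesenchyme has 1 called, Nrarp.

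Between the genotypes there is 1 mutant library, no test was run, and values are given beside the spread of the controls. The libraries also differed in their other cells. The neuron gate held 21, 19 and 328 cells, glia 9, 29 and 152 and cartilage 9, 9 and 141. Leukocytes numbered 102, 108 and 159 and the erythroid gate 7, 6 and 12. The part of this in the ratios was not tested. Tgfbr1 was at 53.0, 59.5 and 47.3 CPM in the mesenchyme. The libraries read the 3′ end of transcripts, so these counts do not check the deletion. A gene was said to be past the fold where the mutant lay outside both controls, its log2 ratio to the mean log2 CPM of the controls was at least 1 in size and above their gap, and the type held at least 20 UMIs of it. Of 60 pairs of gene and cell type 45 had enough UMIs, and 4 were past the fold. On simulated mesenchyme counts over 14782 genes this rule found 191 of 200 genes changed by 2 on the log2 scale and 1419 that were not changed. The spread of the simulated counts was assumed and not fitted to these libraries, so 1419 is not a false rate for them. In the measured mesenchyme 974 of 14805 genes were past the fold. Being past the fold is a description of these libraries.

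Hes1 in epithelium was lower in the mutant, at 605, 370 and 209 CPM with Poisson intervals of 579 to 632, 353 to 387 and 199 to 220. The log2 ratio was -1.18 beside a control gap of 0.71, and it was the only gene of 7 past the fold in epithelium, where 1.96% of all genes were higher, 4.2% lower and 6.16% either way. The controls themselves were far apart, and against control 2 alone the log2 ratio was -0.82. The epithelial gate list summed to 2142, 1772 and 1464 CPM in the same cells, and the check markers Krt8, Krt18 and Perp to 686, 586 and 335 CPM. Both were lowest in the mutant, and their part in the result was not tested. Jag1 in epithelium was at 71.0, 87.6 and 52.0 CPM, a log2 ratio of -0.60 that was below both controls and not past the fold. Nrarp was also past the fold there, at 18.9, 21.8 and 9.47 CPM, as 1 of the 40 other pathway genes with at least 20 UMIs.

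Heyl was higher in the mutant in the pericyte gate and in mesenchyme. In the pericyte gate it was at 45.5 CPM (interval 26.5 to 72.9), 21.9 CPM (5.97 to 56.1) and 91.2 CPM (69.4 to 118), a log2 ratio of 1.53 beside a gap of 1.06. It was the only gene of 7 past the fold there, against 2.85% of all genes higher, 3.32% lower and 6.17% either way. The pericyte check markers Pdgfrb, Cspg4, Mcam and Ndufa4l2 moved with it, at 311, 203 and 453 CPM, and their part in it was not tested. With cells thinned to 2000 UMIs the log2 ratio was 0.86, and with 1 marker more for each gate, which left 8, 1 and 23 cells, it was 0.17. Nrarp in the pericyte gate was past the fold as well, at 37.5, 11 and 75.7 CPM. The control 2 value lay below the floor of 3 UMIs, which is 16.4 CPM there. Of the 26 other pathway genes with at least 20 UMIs in this gate 2 were past the fold, both higher, near the 6.17% of all genes.

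In mesenchyme Heyl was at 1.20, 1.28 and 2.51 CPM on 13, 17 and 69 UMIs, a log2 ratio of 1.01 beside a gap of 0.09. It was the only gene of 8 past the fold, against 1.9% of all genes higher, 4.68% lower and 6.58% either way. The same 4 pericyte check markers summed to 84.7, 87.6 and 133 CPM in the mesenchyme, while the pericyte gate list was at 24.7, 25.8 and 25.7 CPM. The log2 ratio of Heyl was 0.25 with thinned cells, 0.56 as a mean over cells and 0.58 with 1 marker fewer for each gate, so it was past the fold only under some of the settings.

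Notch1 in muscle progenitors was the other pair, at 20.5, 21.5 and 10.3 CPM on 9, 12 and 6 UMIs, a log2 ratio of -1.03 beside a gap of 0.07. All 3 Poisson intervals overlapped, at 9.39 to 39.0, 11.1 to 37.5 and 3.77 to 22.4 CPM, so the difference was not detectable at this depth, and the log2 ratio was -0.30 without cells that also held mesenchyme markers. It was the only gene of 7 there, against 1.12% of all genes higher, 5.92% lower and 7.04% either way. Hes1, at 342, 238 and 149 CPM, and Hey1, at 41.1, 44.8 and 22.3 CPM, were also below both controls in muscle progenitors, with log2 ratios of -0.94 and -0.95.

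Endothelium and differentiating myocytes had 0 genes of 8 past the fold each, against 3.78% of all genes in endothelium (0.758% higher, 3.02% lower) and 6.77% in differentiating myocytes (1.82% higher, 4.95% lower). Notch1 in endothelium lay between the controls at 115, 90.3 and 105 CPM, and Notch4 and Dll4 in the mutant were near control 2, at 33.1 and 43.3 CPM, with control 1 higher on 22 cells. Notch2 was below both controls in 5 of the 6 types, by 0.41 to 0.70 on the log2 scale, and between them in epithelium, at 89.9, 124 and 108 CPM. The types come from the same libraries, so this is not 5 separate observations. Hes1 in mesenchyme was at 275, 111 and 102 CPM and Hes1 in differentiating myocytes at 304, 88.5 and 104 CPM, so there control 1 was apart and the mutant was near control 2.

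**Figure D5:**
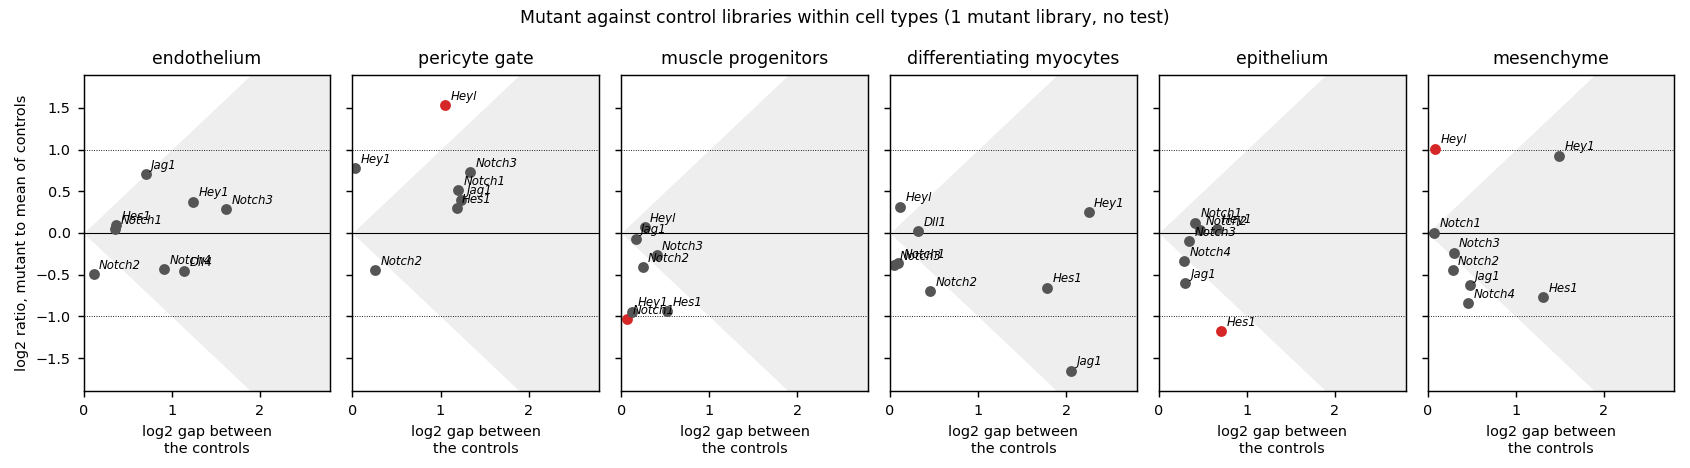
Log2 ratio of the mutant to the mean of the controls (vertical axis) against the log2 gap between the 2 controls (horizontal axis) for the 45 pairs of Notch gene and cell type with at least 20 UMIs, 1 panel for each type. Grey marks ratios no larger than the gap, dotted lines a log2 ratio of 1 in size, and red the 4 pairs past the fold. These are Heyl in the pericyte gate (1.53) and in mesenchyme (1.01), Notch1 in muscle progenitors (-1.03) and Hes1 in epithelium (-1.18).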

How the data were processed

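Cells of 2 control libraries and 1 Osr2-Cre;Alk5fl/fl library (10x Genomics 3′ v2) were measured. The authors deposited raw UMI counts for each gene and barcode, made with Cell Ranger 4.0.0 by the file header and the methods, while the submitters' processing notes list Cell Ranger 3.1.0 and mm10. The values were not normalized, and the study's merging of the controls is not part of them. The labels gave each library its group. Quality filters asked for at least 500 genes and at most 10% mitochondrial UMIs in a cell and removed 699, 246 and 579 barcodes, and the highest Scrublet scores (scanpy 1.11.5) at a preset 0.8% for each 1000 barcodes removed a further 48, 124 and 564. A cell entered a type with the minimum number of its markers, 3 for endothelium and epithelium and 2 for the pericyte gate, muscle and mesenchyme, muscle also with 5 sarcomere genes. Cells that passed 2 gates (76, 37 and 133) were left out.

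Summed UMI counts were tested with edgeR 4.0.16 in R 4.3.3 (glmQLFTest, TMM, filterByExpr, library as a block), and DESeq2 1.42.0 was an alternative. On simulated counts for endothelium against mesenchyme, over 8996 genes, 181 of 200 genes changed by 2 on the log2 scale were recovered, with 7 false calls. The spread of those counts was assumed, and larger than the common dispersion of 0.0146 that edgeR fitted to the sums. Apart from the changed genes their means were the same in all types. The 10 Notch genes were all named. Of 47 other pathway genes up to 3 called ones with the largest fold change were named for each comparison, and up to 3 genes for each Notch gene by likeness. Named outside this rule, after their values were seen, was Nrarp between genotypes. The genes, lists and gates were chosen with earlier results of these data known. Coordinates of promoters are those of RefSeq, and 32235 of 32285 gene identifiers matched the GENCODE M21 annotation. Each alternative changed 1 choice of scaling, test, filter, gate, doublets, block or library. A type of a library entered the tests between types with at least 10 cells, so a changed gate could also drop a sum. For the pericyte gate with 4 UMIs this minimum was lowered to 5. Poisson intervals and floors (3 UMIs) cover counting error only. 1 marker of the epithelial check list is not reported here.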

Additional observations from a re-analysis of the deposited data

Results flagged for a closer look

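In 5 pairs of Notch gene and comparison the mutant library moved against both controls, as log2 differences of CPM between the types within a library. None of these differences between genotypes was tested. Jag1 in endothelium against mesenchyme was 1.21 in the mutant and -0.0022 and -0.23 in the controls. Hes1 in the pericyte gate against mesenchyme was 0.47 in the mutant and -0.66 and -0.53 in the controls. For Notch1 in muscle progenitors against mesenchyme the mutant was at -0.34 and the controls at 0.70 and 0.70. For Hey1 in differentiating myocytes against mesenchyme the mutant was at -0.24 and the controls at 0.81 and 0.055, the last on 3 UMIs. For Notch4 in epithelium against mesenchyme the mutant was at 0.085 and the controls at -0.79 and -0.040. In cells outside the comparisons, Notch2 in the erythroid gate was at 143 CPM in the mutant and at 0 and 72.5 CPM in the controls, on 12, 7 and 6 cells.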

How the results depend on the processing

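No log2 fold change or log2 ratio of a called Notch gene changed sign under any alternative that gave a value. The counts of called Notch genes moved in these cases. With 1 marker fewer for each gate, 1 was called in the pericyte gate against mesenchyme (4 as reported), 2 in muscle progenitors (4), 2 in differentiating myocytes (4) and 1 between the muscle groups (4). The shares of all genes called fell there too, to 0.195%, 1%, 5.24% and 1.64%, from 0.874%, 15.4%, 14.3% and 3.47% as reported. With the pericyte gate limited to 4 UMIs, chosen after seeing the data, endothelium against the pericyte gate had 4 (7 as reported). Of all genes 10.5% were called there, against 20.3% as reported, and the pericyte gate of control 2 had too few cells to enter. Leaving out 1 library at a time gave 1 to 4 between the muscle groups, with 1 without control 2 and 1 without the mutant, and 1 to 4 in the pericyte gate, with 1 without the mutant. The shares of all genes called in these 3 cases were 1.11%, 1.61% and 0.297%. The cause was not tested, beyond the fewer samples. Past the fold between genotypes were 7 pairs as a mean over cells and 2 with 1 marker more for each gate (4 as reported), and 6 without control 1 and 10 without control 2. With only 1 control left there is no gap to exceed, so the rule is looser by construction in these last 2 settings.

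The library was the replicate block in the tests between types as reported. With no replicate block 2 genes were called between the muscle groups (4 with it), and the other counts stayed within 1.5 times, although the calls of Jag1 in the pericyte gate, Jag1 in differentiating myocytes, Hes1 in epithelium and Hey1 in endothelium against the pericyte gate were lost. No paired analysis of the genotypes was possible because there is 1 mutant library and the labels do not pair it with a control. In the tests between types, 1 marker more for each gate and cell types from clusters gave no value for the pericyte gate, and clusters gave none for muscle progenitors. Depth limited Dll1 and Dll4 in the small sums of the pericyte gate and muscle progenitors, and Dll1 in endothelium. It also limited all values of the 22 endothelial cells of control 1 and the 19 cells of the pericyte gate of control 2.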

Other observations

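Glia, a type outside the comparisons, held several of these genes. In the glial gate, with 9, 29 and 152 cells in control 1, control 2 and the mutant, Jag1 was at 156, 161 and 93.0 CPM, Notch1 at 62.6, 44.4 and 78.6 CPM and Heyl at 0, 50.0 and 49.7 CPM, on 0, 9 and 55 Heyl UMIs. Heyl in glia of control 2 and the mutant was thus at a level like that of muscle progenitors. Dll1 and Dll4 had no UMI in the glial gate of any library.

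Leukocytes held Notch1 at 27.9, 26.3 and 23.1 CPM, Notch2 at 49.3, 74.8 and 71.3 CPM and Hes1 at 148, 224 and 242 CPM, while Heyl had 1, 0 and 0 UMIs and Dll4 had 1, 0 and 0 UMIs there. Neurons had Notch1 at 0, 4.94 and 4.96 CPM, below the leukocytes of every library. Cartilage cells held Notch2 at 87.6, 58.0 and 126 CPM, and Dll1 and Dll4 had no UMI in the cartilage gate of any library.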
